A study of Mus musculus with 6 samples.

Results

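Pachytene is the long stage of meiotic prophase in which homologous chromosomes are held together by the synaptonemal complex, crossovers mature, and the unpaired X and Y chromosomes are silenced in a compartment called the XY body. It is also the stage at which spermatocytes turn on the genes for pachytene piRNAs, under the transcription factor MYBL1 (A-MYB), and load them onto PIWIL1 (MIWI), the PIWI protein of pachytene spermatocytes and round spermatids. The barcodes described here are the spermatocytes in which Piwil1 transcripts were abundant but those of Ccna1 and Aurka, which build up toward the meiotic divisions, were not. They were chosen from the deposited single-cell count matrices by 5 conditions on unique molecular identifier (UMI) counts: at least 10000 UMIs in all, under 1% of UMIs from the protamine and transition protein genes Prm1, Prm2, Tnp1 and Tnp2, at least 10 UMIs of Piwil1, fewer than 5 UMIs of Ccna1 and Aurka together, and fewer than 5 of the spermatid genes Ssxb1 and Ssxb2 together. Of 48939 barcodes in the 6 libraries, 8576 had 10000 UMIs or more, 5676 of these passed the protamine condition, 1217 of those held 10 or more Piwil1 UMIs, and 451 remained after the Ccna1 and Aurka condition. The Ssxb condition removed none. The 451 barcodes, called Piwil1-high spermatocytes below, were 0.922% of all barcodes and 7.95% of the deep barcodes with low protamine counts.

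The testes came from wild-type mice (C57BL/6 in the labels, C57BL/6N in the study's methods), 8 weeks of age, after 2 weeks on a diet high in fat (HFD) or low in fat (LFD), with 3 libraries per diet and, by the study's methods, 1 mouse per library. No transgene or mutation was involved. The file names give the opposite diet to the sample titles for all 6 libraries, and the study's own barcode number per library goes with the file names, so the libraries are named here by the title ("labelled HFD", "labelled LFD"). If the file names are right, every diet difference below changes sign, while its size, its p-value and the counts of genes stay as given. The 3 libraries labelled HFD held 100, 93 and 92 Piwil1-high spermatocytes, and the 3 labelled LFD held 77, 73 and 16. The third LFD library therefore rests on few cells in every result below. The libraries held 5753 to 11095 barcodes and 39196921 to 95845514 UMIs. Each pair of libraries shared 12 to 28 barcodes, 8 members carried a barcode that another library also held, and 0 barcodes were members in more than 1 library.

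The selection used absolute UMI counts, so the values at its edges are descriptions and carry no test. The Piwil1-high spermatocytes had a median of 28208 UMIs each and together 13488649 UMIs, against a median of 73000 UMIs for 762 barcodes that had enough Piwil1 and few Ssxb UMIs but 5 or more Ccna1 and Aurka UMIs. A deeper barcode reaches 5 such UMIs more readily, so depth and stage cannot be told apart at that edge. There 216 members held 3 or 4 Ccna1 and Aurka UMIs and 143 barcodes just outside held 5 or 6. At the Piwil1 edge, 31 members held 10 or 11 Piwil1 UMIs and 29 barcodes just outside held 8 or 9. Most members were well inside: the median Piwil1 count ranged from 23 to 42 UMIs over the libraries, and the highest was 137. Thinned to 10000 UMIs, a member showed a median of 3621 detected genes.

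Levels below are in CPM, the UMIs of a gene per 1000000 UMIs after summing the members of a library, and are given as mean ± SD over 6 libraries. They count 3′ ends of molecules, so they are not divided by gene length. Each level is set beside other gates cut from the same libraries. The early prophase gate held 118 barcodes with 5 or more UMIs of the recombination genes Dmc1 and Meiob, and its mean covers 5 libraries because the third LFD library had only 2 such barcodes. A Stra8 gate held 148 barcodes with 5 or more UMIs of Stra8, the retinoic acid target that marks entry into meiosis. The later spermatocyte gate held the 762 barcodes just described, a round spermatid gate held 790 barcodes with 5 or more Ssxb1 and Ssxb2 UMIs, and a macrophage gate held 251 barcodes with 1000 or more UMIs in all and 5 or more of the C1q genes, a cell type that should lack germ-cell transcripts. The Stra8, early prophase and round spermatid gates also required fewer than 10 Piwil1 UMIs. The Stra8, later and round spermatid gates were chosen after values were seen. Since the gates were cut on transcripts of the same cells, the differences between them are given as descriptions without a test.

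The 250 bases before the RefSeq start are shown for Piwil1, Hspa2 and the piRNA factor Tdrd5. These genes were high together and each interval holds a match to the letters marked below, so they do not stand for all genes high here. The interval of Tdrd1, another piRNA factor high in the same cells, has no match. Those of Stambp, which stood highest against the neighbouring stages, and Gm10619, which shares a start region with another gene, are also shown. Coordinates are of GRCm38.p6, sequences are RefSeq's, printed 5′ to 3′ on the gene's strand, and capitals mark the letters TAACNG, the core recognised by MYB proteins, or their reverse complement.
Piwil1, chr5:128735996-128736245, plus strand: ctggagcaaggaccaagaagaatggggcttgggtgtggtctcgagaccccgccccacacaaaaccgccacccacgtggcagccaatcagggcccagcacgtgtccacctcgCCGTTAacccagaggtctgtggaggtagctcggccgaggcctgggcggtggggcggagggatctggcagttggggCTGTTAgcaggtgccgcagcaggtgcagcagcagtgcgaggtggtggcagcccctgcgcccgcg
Hspa2, chr12:76404120-76404369, plus strand: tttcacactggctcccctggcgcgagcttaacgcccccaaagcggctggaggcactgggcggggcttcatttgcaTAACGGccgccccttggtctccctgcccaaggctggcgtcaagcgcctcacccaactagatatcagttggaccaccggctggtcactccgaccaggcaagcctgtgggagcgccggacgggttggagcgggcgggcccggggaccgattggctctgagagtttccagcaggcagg
Tdrd5, chr1:156303349-156303598, minus strand: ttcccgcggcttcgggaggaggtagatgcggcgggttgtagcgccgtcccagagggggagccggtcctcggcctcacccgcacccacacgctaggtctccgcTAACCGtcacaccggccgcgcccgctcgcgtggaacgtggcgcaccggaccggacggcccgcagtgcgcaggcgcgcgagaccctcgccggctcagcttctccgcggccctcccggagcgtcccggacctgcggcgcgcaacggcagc
Tdrd1, chr19:56825959-56826208, plus strand: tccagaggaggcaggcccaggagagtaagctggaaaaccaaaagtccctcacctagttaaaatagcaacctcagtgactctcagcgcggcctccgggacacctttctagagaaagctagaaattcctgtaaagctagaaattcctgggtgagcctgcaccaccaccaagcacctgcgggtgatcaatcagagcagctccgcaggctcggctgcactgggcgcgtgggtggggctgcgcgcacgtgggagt
Stambp, chr6:83572505-83572754, minus strand: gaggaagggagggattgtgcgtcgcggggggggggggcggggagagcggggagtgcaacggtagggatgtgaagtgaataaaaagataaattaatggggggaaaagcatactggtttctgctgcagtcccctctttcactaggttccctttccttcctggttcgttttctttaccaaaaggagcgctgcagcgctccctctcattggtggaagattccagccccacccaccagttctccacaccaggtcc
Gm10619, chr7:73816504-73816753, minus strand: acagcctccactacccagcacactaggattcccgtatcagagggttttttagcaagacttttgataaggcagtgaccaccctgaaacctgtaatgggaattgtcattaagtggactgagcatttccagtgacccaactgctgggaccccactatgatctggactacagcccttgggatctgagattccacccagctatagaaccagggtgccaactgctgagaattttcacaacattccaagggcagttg
The Piwil1 interval held 2 matches, 139 and 64 bases before the start. The Hspa2 and Tdrd5 intervals held 1 each, 175 and 148 bases before the start, and the Tdrd1, Stambp and Gm10619 intervals held none. Nor did those of Mael, Adad2, Pou2f2 and Elfn2, which are not printed. That of Gm14244, also not printed, held 1 match, 8 bases before the start. Searched on both strands, the letters were found in 5 of the 17 piRNA pathway promoters in the table (29.4%), in 2 of the 10 matched promoters among the 15 genes that led the Piwil1-high spermatocytes, and in 5349 of all 27025 promoters of that length (19.8%). A match is a run of letters, not a measured binding site.

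Of the 6 marker genes of the label, 5 were present at a high level and Pou5f2 was not. Piwil1, located at chr5:128702524-128755474 in the GENCODE annotation of GRCm38, stood at 1104, 1198 and 1005 CPM in the libraries labelled HFD and at 1265, 1248 and 1159 CPM in those labelled LFD. Its mean was 1163 ± 97.2 CPM, against 139 in the early prophase gate, 617 in the later gate, 33.1 in the Stra8 gate, 17.6 in round spermatids and 58.0 in macrophages. That order was fixed in part by the selection itself. The early prophase, Stra8 and round spermatid gates were limited to fewer than 10 Piwil1 UMIs, so their Piwil1 levels are not those of the whole stages. Mybl1, which encodes A-MYB, stood at 149, 192, 203, 154, 154 and 143 CPM in HFD 1 to 3 and LFD 1 to 3. Its mean of 166 ± 25.2 CPM lay below the 197 of early prophase and above the 108 of the later gate. For both genes the libraries of the 2 diets overlapped.

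Hspa2, a testis HSP70 chaperone needed to take the synaptonemal complex apart, stood at 2133, 2249, 2300, 2098, 2185 and 2000 CPM in the same order, with a mean of 2161 ± 108 CPM. It was 1213 CPM in early prophase, 1635 in the later gate and 1117 in round spermatids. Clgn, an endoplasmic reticulum chaperone of germ cells, had a mean of 884 ± 40.8 CPM against 417 in early prophase and 850 in the later gate. Adam2, a sperm surface protease-like protein, was at 362 ± 34.8 CPM and was higher still in the later gate, at 496 ± 40.8 CPM. All 6 libraries of Hspa2 lay above the mean of every other gate.

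Pou5f2, a POU-domain factor of late pachytene cells, stood at only 15, 12.4, 14.9, 13.2, 20.6 and 11.5 CPM. The mean of 14.6 ± 3.25 CPM was no higher than the 26.3 ± 24.5 CPM of macrophages, which should lack the gene. Macrophage barcodes also held more of other germ-cell transcripts, such as Akap4 at 837 CPM against 34.2 here and Hypm at 528 against 10.7. Their Pou5f2 level is therefore not a measure of the background in members. A Pou5f2 UMI was found in 31.7% of members, at a median depth of 28208 UMIs, and in 16.7% of macrophage barcodes at a median depth of 3674 UMIs. In the later gate Pou5f2 stood at 188 ± 35.7 CPM, 12.8 times the level here. Pou5f2 thus went against the label. Of the other 5 markers, Piwil1 was fixed by the selection, so the label rests on Mybl1, Hspa2, Clgn and Adam2.

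**Figure D1:**
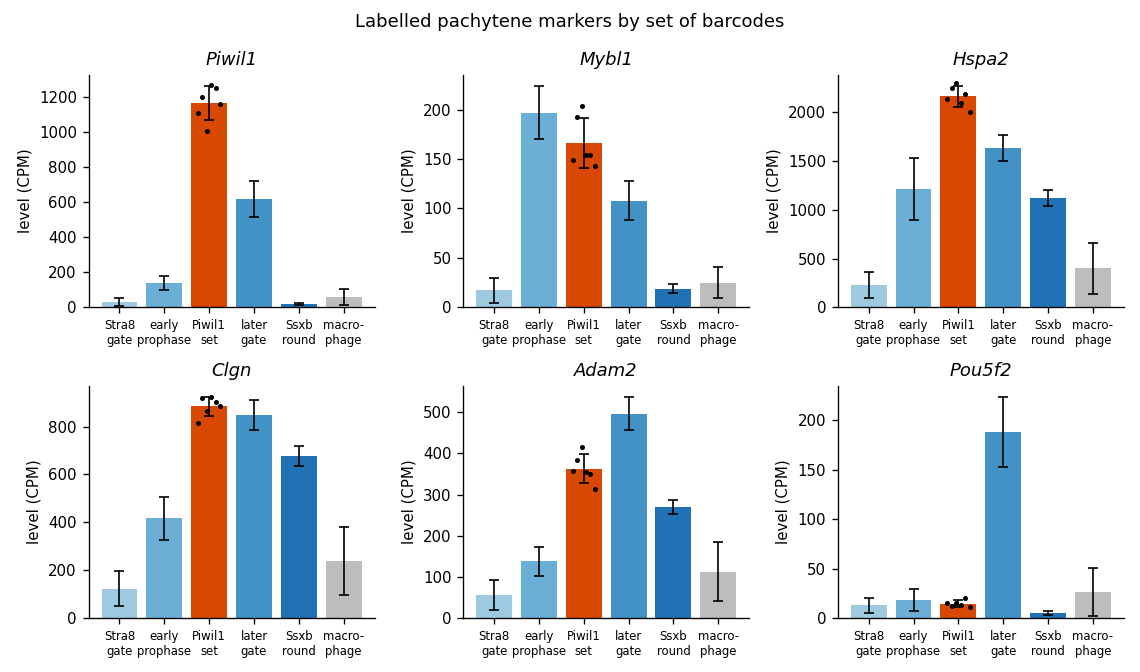
Levels in CPM of the 6 marker genes of the label in the Stra8, early prophase, Piwil1-high, later, round spermatid and macrophage sets, with bars at the mean over libraries, error bars of 1 SD and dots for the 6 libraries of the Piwil1-high set. Piwil1 and Hspa2 peak in the Piwil1-high set at means of 1163 and 2161 CPM, while Pou5f2 is at 14.6 CPM there and 188 CPM in the later gate. The Piwil1 peak follows in part from the gates. The Stra8, early prophase and round spermatid sets were limited to fewer than 10 Piwil1 UMIs.

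Genes for the axis of the synapsed chromosomes were abundant but below their early prophase levels. None of the 14 genes listed for the synaptonemal complex and meiotic cohesin (12 of them at 5 CPM or more) was highest in the Piwil1-high spermatocytes. Summed, the list took 6839 CPM (5924 to 7829 over the libraries), against 11202 in early prophase and 3144 in the later gate. Sycp1, the transverse filament protein, stood at 1717, 2005, 1972, 1776, 1632 and 1588 CPM, with a mean of 1781 ± 174 against 2665 in early prophase and 387 in the later gate. Sycp3, of the lateral element, had a mean of 1225 ± 135 CPM against 3116 and 500. Sycp2, its partner, and Hormad1, which leaves the axis upon synapsis, followed at 820 ± 156 and 803 ± 122 CPM, against 1193 and 1319 in early prophase. Syce1, a central element protein, went the other way, with 434 ± 31.8 CPM and 732 CPM in the later gate.

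Among 19 recombination genes, several that act on new breaks were low and several that act on crossovers were at their highest. Dmc1 and Meiob, both used to cut the early gate, stood at 9.26 and 58.8 CPM here against 157 and 374 there. Prdm9, which places the breaks, stood at 1.43 CPM against 52.3 in early prophase, a gene the early gate did not use. Mlh3, whose product acts at crossovers, had 101, 181, 178, 117, 156 and 131 CPM, a mean of 144 ± 33 CPM against 61.5 in early prophase and 77.7 in the later gate. The crossover factor Ccnb1ip1 (HEI10) stood at 81.2 ± 11 CPM against 62.0 and 17.3. Spo11, which makes the breaks, was nevertheless at 107 ± 12 CPM, as in the later gate (108) and above early prophase (74.7). Psmc3ip, the HOP2 partner of MND1 in strand invasion, was the most abundant of the list at 533 ± 58.2 CPM. In all, 4 of the 17 recombination genes at 5 CPM or more (Psmc3ip, Mlh3, Ccnb1ip1 and Rnf212) were highest in the Piwil1-high spermatocytes, against 1413 of all 9372 genes at that level (15.1%).

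Many piRNA pathway genes were at their highest here. Of 21 of its 22 genes at 5 CPM or more, 10 were highest in the Piwil1-high spermatocytes, against 15.1% of all genes at that level, among them Piwil1, which the selection used. The other 9 were Piwil2, Ddx4, Tdrd1, Tdrd3, Tdrd5, Tdrd9, Tdrkh, Pld6 and Rnf17, of which 6 (the 4 Tdrd genes, Tdrkh and Rnf17) encode Tudor-domain proteins. The summed list, Piwil1 included, was 6418 CPM (5895 to 7025), against 4959 in early prophase, 4615 in the later gate and 3837 in round spermatids. Tdrd1, a Tudor protein of the intermitochondrial cement, stood at 329, 501, 401, 387, 419 and 330 CPM, a mean of 395 ± 64.2 CPM against 102 in early prophase and 161 in the later gate. Tdrd5, whose promoter interval is printed above, stood at 221, 273, 255, 241, 245 and 221 CPM, with a mean of 243 ± 20.2 CPM against 87.1 and 118. For both genes the lowest library was above the early and later means, and round spermatids were at 19.5 and 3.38 CPM.

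The RNA helicase gene Ddx4 (VASA) was at 823 ± 138 CPM against 716 in early prophase, and Piwil2, which encodes another PIWI protein, at 343 ± 52.2 against 318. Other piRNA factors peaked elsewhere. Mael, of the nuage, was at 726 ± 49.7 CPM with 852 in the later gate. Gtsf1, a zinc-finger partner of PIWI proteins, reached 522 ± 49.4 CPM here and 1242 in round spermatids. Mov10l1, the helicase that starts piRNA processing, stood at 282 CPM against 676 in early prophase. Fkbp6 was at 223 CPM against 522 in the Stra8 gate, and Tex15, which directs transposon silencing, at 15.6 against 965 there. Btbd18, a nuclear factor that promotes elongation at pachytene piRNA genes, was low at 3.19 CPM.

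Of the 15 transcription regulators listed for pachytene, 14 were at 5 CPM or more and 3 (Tesmin, Hsf5 and Rfx4) were highest here. Tesmin, a cysteine-rich DNA-binding protein of spermatocytes, was the most abundant at 778 ± 128 CPM against 572 in early prophase, 391 in the later gate and 34.5 in the Stra8 gate. Hsf5, a meiotic heat shock factor family member, stood at 305 ± 18.8 CPM against 177 and 222 in the 2 neighbours. Tcfl5, a helix-loop-helix factor, had 446 ± 33.9 CPM and was higher in the later gate, at 617. The TBP-like factor Tbpl1 (309 ± 32.5 CPM) and Crem (155 CPM) belonged to later stages, with 1043 and 587 CPM in round spermatids. Brdt, a testis bromodomain protein, stood at 313 ± 29.2 CPM against 419 in early prophase. Taf7l, an X-linked TFIID subunit, was at 2.80 CPM against 457 in the Stra8 gate.

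Among 21 regulators of the meiotic divisions, some were higher before and some after these cells. Meioc, which keeps cells in meiotic prophase, was at 392 ± 80.4 CPM against 511 in early prophase, while Spdya, a CDK activator, was at 279 ± 27.0 against 380 in the later gate. Eif4g3, a translation factor that spermatocytes need to leave prophase, was at 289 ± 19.5 CPM. Ccna2 and Ccnb1, mitotic cyclins, were at 1.76 and 21.8 CPM against 98.4 and 171 in the Stra8 gate, and the X-linked Ccnb3 was at 0.0622 against 64.6 in early prophase. Ccna1 (12.1 CPM) and Aurka (67.2 CPM) were low because the selection required it. Of the 17 listed genes at 5 CPM or more, 2 (Hspa2 and Eif4g3) were highest here.

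The genes for the silencing machinery of the XY body were abundant, though only Rnf8, at 121 CPM, of the 16 at 5 CPM or more was at its highest. Atr, the kinase that phosphorylates H2AX on the unsynapsed axes, had 400 ± 77.3 CPM against 572 in early prophase and 226 in the later gate. H2afx itself had 295 ± 43.1 CPM against 425 and 116, and Mdc1, which carries the mark from the axes into the loops, 250 ± 46.8 CPM. Brca1, which acts before these on the axes, was at 11.9 CPM. The 2 X-linked genes of the list, Scml2 and Atrx, stood at 3.99 and 1.00 CPM against 272 and 130 in the Stra8 gate.

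The X and Y chromosomes were nearly silent. Ssxb1 and Ssxb2, which the gates used, were left out of the X-linked shares in every set of barcodes. X-linked genes took 0.0805%, 0.0871% and 0.0675% of the UMIs in the libraries labelled HFD and 0.0650%, 0.0865% and 0.116% in those labelled LFD. Of the 451 members, 6 had more than 0.5% of their UMIs on the X, and 1 of them held 278 of the 504 X-linked UMIs of the third LFD library. Without these 6 the libraries ranged from 0.0578% to 0.0871%, with a mean of 0.0676% ± 0.0112, and the third LFD library was the lowest, at 0.0578%. Over all members the mean of 0.0838% ± 0.0184 was 21.4 times below the Stra8 gate (1.79%), 11.1 times below early prophase (0.932%) and 9.24 times below round spermatids (0.774%), and the later gate was near it at 0.0597%. No Piwil1-high library overlapped the lowest Stra8 gate library (1.41%) or the lowest early prophase library (0.446%). Y-linked genes took 24.3 ± 5.08 CPM, 18.4 times less than the 447 CPM of the Stra8 gate. Macrophage barcodes of the same libraries had an X share of 1.71%.

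The low level extended over most X-linked genes. Of 205 X-linked genes at 20 CPM or more in the Stra8 gate, 190 (92.7%) were at 10% of that level or less in the Piwil1-high spermatocytes, against 660 of 7261 autosomal genes (9.09%). The median X-linked gene kept 1.11% of its Stra8-gate level and the median autosomal gene 74.3%. Only 1 X-linked gene kept 50% or more. It was Ndufa1, a complex I subunit, at 135, 151, 101, 145, 131 and 108 CPM, a mean of 128 ± 19.9 against 152 in the Stra8 gate, 487 in early prophase and 29.0 in the later gate. Ndufa1 alone made up 15.3% of all X-linked UMIs. Prdx4, a peroxiredoxin, was at 33.8 ± 7.50 CPM against 264 in the Stra8 gate. Tsga8 (60.5 ± 44.5 CPM) and Akap4 (34.2 CPM), both spermatid genes, were also among the highest, but Tsga8 reached 976 CPM in round spermatids and was at 150 CPM in the third LFD library, and Akap4 was at 837 CPM in macrophage barcodes, far above its level here.

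**Figure D2:**
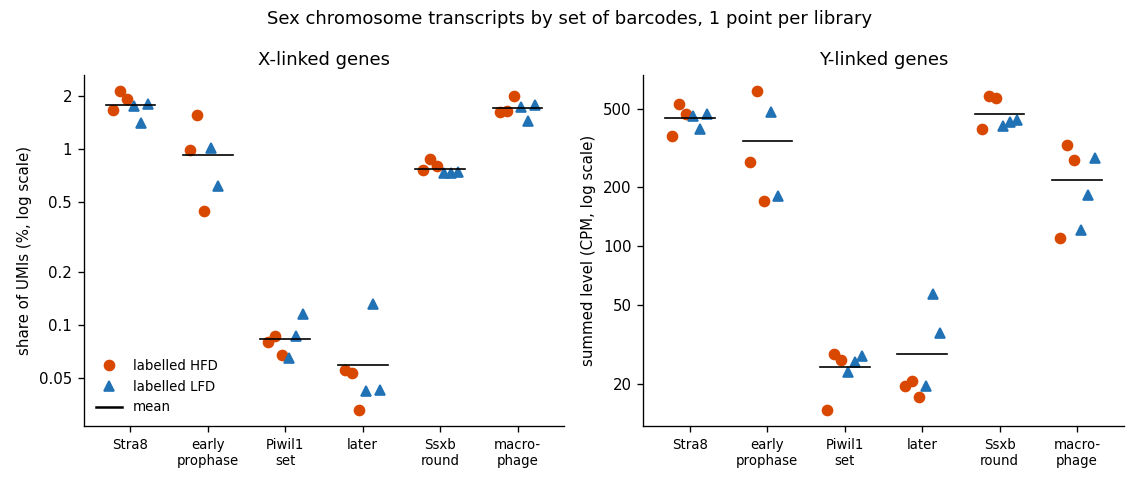
Share of UMIs from X-linked genes in percent (left) and summed level of Y-linked genes in CPM (right), both on log axes, with a point per library (circles labelled HFD, triangles labelled LFD) and a line at the mean for each set of barcodes. The 6 Piwil1-high points lie between 0.0650% and 0.116% for the X, below every Stra8, early prophase and round spermatid library. Ssxb1 and Ssxb2 were left out of the X share.

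Autosomal relatives of X-linked housekeeping genes were present where the X-linked gene was nearly absent. Of 16 such pairs, 15 were found, and the X-linked gene was below its Stra8-gate level in all 15. The autosomal copy exceeded the X-linked gene in all 6 libraries for 14 pairs. The exception was G6pdx with G6pd2, at 0.0622 and 0.506 CPM, each with an SD above its mean. Rpl39, a ribosomal protein gene, stood at 4.99 CPM and its copy Rpl39l at 1458 ± 114, where the Stra8 gate had 296 and 591. Rpl10 stood at 4.19 CPM and Rpl10l at 220 ± 33.5, against 280 and 62.4 in the Stra8 gate. In the Stra8 gate Rpl10 was thus above Rpl10l, and here it was below.

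X-linked centrin, splicing and energy genes were also nearly absent with the copy present, but mostly without the reversal seen for Rpl10. In the Stra8 gate Cetn1 was already above Cetn2 (296 against 74.6 CPM), as were Rbmxl2 above Rbmx (241 against 6.76) and Pdha2 above Pdha1 (50.3 against 11.4). Fam50b and Gk2 were also above their X-linked genes there, while Naa11 was below Naa10 (4.66 against 24.9). Cetn2 stood at 0.480 CPM and Cetn1 at 790 ± 68.0, Rbmx at 0.179 and Rbmxl2 at 576 ± 58.1, and Fam50a at 0.234 and Fam50b at 141 ± 29.1. Pdha1, Gk and Naa10 had 0 of 13488649 UMIs, which allows a level of up to 0.222 CPM by counting error alone, while Pdha2, the autosomal pyruvate dehydrogenase subunit, had 436 ± 26.8 CPM, Gk2 150 ± 19.8 and Naa11 19.8 ± 1.16. Of the 15 copies, 10 were above their Stra8-gate level. Pgk2, at 43.2 ± 16.4 CPM, Utp14b, Ubl4b, G6pd2 and Slc25a31 were below it, and Slc25a31, the germ-cell ADP/ATP carrier, was at 272 ± 30.6 against 318. In the later gate 6 of the 15 copies were higher than here, Pgk2 at 172 and Cetn1 at 1807 CPM among them.

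**Figure D3:**
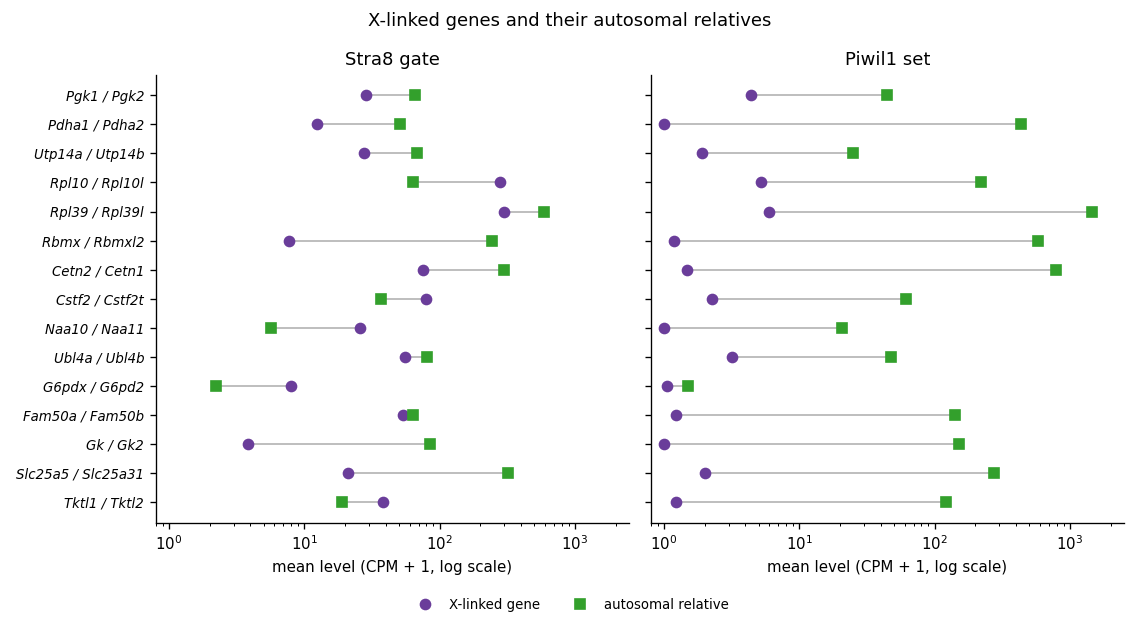
Mean levels over 6 libraries, as CPM + 1 on a log axis, of 15 X-linked genes (circles) and their autosomal relatives (squares) in the Stra8 gate (left) and the Piwil1-high spermatocytes (right). In the Piwil1-high spermatocytes the squares lie to the right of the circles in every pair, as for Rpl39l at 1458 and Rpl39 at 4.99 CPM.

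Chaperone genes were abundant in the Piwil1-high spermatocytes. All 15 chaperone genes were at 5 CPM or more and 5 (Hspa2, Hspa4l, Hsp90aa1, Clgn and Cct6a) were highest here. Hsp90aa1, the inducible HSP90 that germ cells use throughout meiosis, stood at 6617 ± 502 CPM against 6135 in early prophase and 5179 in the later gate. Tcp1, a subunit of the chaperonin for actin and tubulin, stood at 1878 ± 128 CPM, and Calr, the calreticulin of all cells, at 716 CPM against 2610 in early prophase. Its germ-cell relative Calr3 was at 6.29 CPM.

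The testis linker histone gene Hist1h1t was at its peak. It stood at 230, 150 and 203 CPM in the libraries labelled HFD and at 252, 322 and 249 CPM in those labelled LFD, a mean of 234 ± 57.1 CPM against 14.0 in the Stra8 gate, 78.2 in early prophase and 123 in the later gate. The testis core histones Hist1h2ba and Hist1h2aa were at 163 ± 46.7 and 122 CPM. Hist1h2ba was at 278 CPM in early prophase and at 24.9 in the later gate. H3f3b, which encodes the replacement histone H3.3, stood at 4617 ± 394 CPM against 1649 in the later gate. H2afb1 had no UMI. Of the 10 histone genes at 5 CPM or more, 3 were highest here.

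Germ-cell energy enzymes were well above early prophase. Ldhc, the lactate dehydrogenase of spermatogenic cells, stood at 5266 ± 430 CPM, 3.79 times early prophase (1390) but below the 8869 of the later gate. Cyct, the testis cytochrome c, was at 755 ± 66.5 CPM against 294 in early prophase and 457 in the later gate, while the somatic Cycs was at 20.6 against 140 in the Stra8 gate. Cox8c and Cox6b2, testis subunits of cytochrome oxidase, had 3396 ± 266 and 1681 ± 372 CPM. Of 19 energy genes at 5 CPM or more, 4 (Pdha2, Cox6b2, Cyct and Akr1b3) were highest here. Fatty acid oxidation genes were low, 12 of 22 reaching 5 CPM and none at its highest, with Hadhb at 193 and Hadha at 137 ± 3.66 CPM. The mitochondrially encoded mRNAs took 43970 CPM (35055 to 56531), between early prophase at 59354 and the later gate at 20644, with mt-Co3 at 10501 ± 2091 CPM on top. The ADAM family of sperm surface genes had 8 of 19 members at 5 CPM or more, none at its highest, and Adam3 was at 90.4 against 471 in the later gate.

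The genes that most set these cells apart lay outside the lists, apart from Piwil1. The 15 genes with the largest ratio to the mean of the 3 neighbouring gates fixed with the lists (the early prophase gate, a wider late gate of 2799 barcodes and an early round spermatid gate of 24, with 5 CPM added to each side and at least 50 CPM here) are given as a description, since they were ranked on these values. Stambp, which encodes a deubiquitinase of endosomes, led with a ratio of 15. It stood at 472, 583, 521, 607, 454 and 410 CPM, a mean of 508 ± 76.5 CPM against 35.6 in early prophase, 107 in the later gate and 6.44 in round spermatids. Every library, the lowest at 410 CPM, lay above the mean of each other gate. Adad2, a double-stranded RNA-binding protein of spermatocytes, stood at 178 ± 18.8 CPM against 33.2 and 51.1, and the POU factor Pou2f2 at 210 ± 16.7 against 26.8 and 106. Elfn2, a membrane protein, stood at 407 ± 43.5 CPM against 86.7 and 199. Rnf227, a RING finger gene, had a ratio of 7.65, but the Stra8 gate matched it, at 200 CPM against 193 ± 8.49. The other 14 leading genes were highest in the Piwil1-high spermatocytes among the gates shown.

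Non-coding transcripts were frequent among the leading genes. Of the 15, 7 (46.7%) were not annotated as protein-coding, against 114 of 3691 genes (3.09%) at 50 CPM or more. Gm50166 stood at 526 CPM, 4930444F02Rik at 374, 4933435G04Rik at 174, Gm14244 at 167 and 4921525O09Rik at 134. The remaining 2, Gm21269 and Gm10619, are long non-coding genes that start 43 bases apart on opposite strands of chromosome 7 (chr7:73816546-73838898 on the plus strand and chr7:73781429-73816503 on the minus strand), and the Gm21269 start lies within the Gm10619 interval printed above. Gm21269 had 385, 623, 510, 475, 576 and 477 CPM, a mean of 508 ± 84.0 against 67.6 in early prophase and 264 in the later gate. Gm10619 had 90.5, 190, 140, 111, 155 and 78.3 CPM, a mean of 127 ± 42.2 against 13.9 and 62.3. Both were highest in the second HFD library, and both were low in the Stra8 gate, at 12.7 and 1.73 CPM. RefSeq places the start of Gm21269 further into the gene, so its own promoter entry does not cover this interval. A start on the other strand within 1000 bases was found for 3 of the 15 leading genes and for 1159 of the 3691 genes (31.4%), so such an arrangement was not more frequent among the leading genes. The counting does not say which annotation overlaps were resolved by strand, and Stambp, Pou2f2, Elfn2 and 4930444F02Rik overlap another gene model.

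At the other end, Tex36, Spag6, Fam24a, 4921504E06Rik and 1700016D06Rik were the genes furthest below their neighbours, at 4.18 to 21.2 CPM here and 333 to 752 CPM in round spermatids. By level alone, the most abundant nuclear transcripts were Hsp90aa1, Ubb (6081 ± 965 CPM, polyubiquitin), Ldhc, H3f3b, Meig1 (4119 ± 181, needed later to build the sperm tail), Fabp9 (3814 ± 77.9, a testis fatty acid-binding protein), Cox8c, Rpl13 (3163), Rsph1 (3152) and Calm2 (3102). The genes most like Piwil1 over 24 points (6 libraries by the members and the 3 neighbouring gates, Pearson's r of log2 levels, among 3692 genes) were Pou2f2 at 0.972, Sap30 at 0.966, D130017N08Rik at 0.964, Dut at 0.957, Thoc7 at 0.957, Gm14244 at 0.955, Elfn2 at 0.954, Capza1 at 0.950, 1700040D17Rik at 0.950 and Gm21269 at 0.949. The points share libraries and the early round spermatid gate held 2 to 6 barcodes per library, so r only ranks the genes.

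Within the 451 spermatocytes the transcripts varied along a range from early prophase toward late pachytene genes. Each cell was scored by the share of late pachytene UMIs in the sum of 9 late genes (such as Ldhc, Clgn and Tbpl1) and 11 early genes (such as Sycp1, Sycp3 and Hormad1). The score ran from 13.4% to 88.0% with a median of 50.7%, and 86 cells lay between 45% and 55%, so the score itself had no gap there. In each library the cells were split into 3 groups of near-equal number, and the genes given next were not in the score. Spink2, a protease inhibitor of the acrosome, had a mean of 302 ± 67.1 CPM in the lowest group, 618 ± 81.5 in the middle and 1019 ± 143 in the highest, and was higher in the highest than in the lowest group in 6 of 6 libraries. Tcfl5, at 382, 437 and 510 CPM, had the same order in all 6. Both were therefore graded inside the population that the selection treats as a single class.

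Several genes were lower where the score was higher. Ccnb1ip1 had 113, 90.0 and 42.2 CPM in the lowest, middle and highest groups, Dmrtc2, a DM-domain factor of the XY body, had 237, 196 and 125, and Mybl1 had 210, 167 and 124, each lower in the highest than in the lowest group in all 6 libraries. Ndufa1 was at 220, 114 and 58.4 CPM, lower in the highest than in the lowest group in 6 of 6 libraries. The X share of UMIs was at 0.0999%, 0.0869% and 0.0682%, also with that order of the outer groups in 6 of 6, but the middle group was the lowest in 4 of 6 libraries. Without the third LFD library the middle mean was 0.0591%, below the 0.0713% of the highest group. These group values include the members over 0.5% X-linked UMIs. Such a member lay in the highest group of the first HFD library (1.06%) and of the third HFD library (0.791%). Another lay in the middle group of the third LFD library (0.645%). The rest lay in the lowest groups of the first HFD and second LFD libraries. The part of these members in the order of the groups was not tested. Stambp had its highest mean in the middle group, with 584, 710 and 221 CPM, and was lower in the highest than in the lowest group in 6 of 6 libraries. Adad2 had the same shape, with 181, 214 and 134 CPM. Piwil1 itself was at 1045, 1259 and 1163 CPM. The groups had median depths of 24394, 30459 and 29071 UMIs and mitochondrial shares of 4.17%, 3.71% and 5.70%. The highest group was not alike across libraries. Its mitochondrial share was 9.74% in the second HFD and 6.88% in the second LFD library, but 3.29% and 3.16% in the first HFD and LFD libraries. Single members ran from 0.39% to 61.88% with a median of 3.77%. The part of depth and of mitochondrial share in the gradient was not tested.

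**Figure D4:**
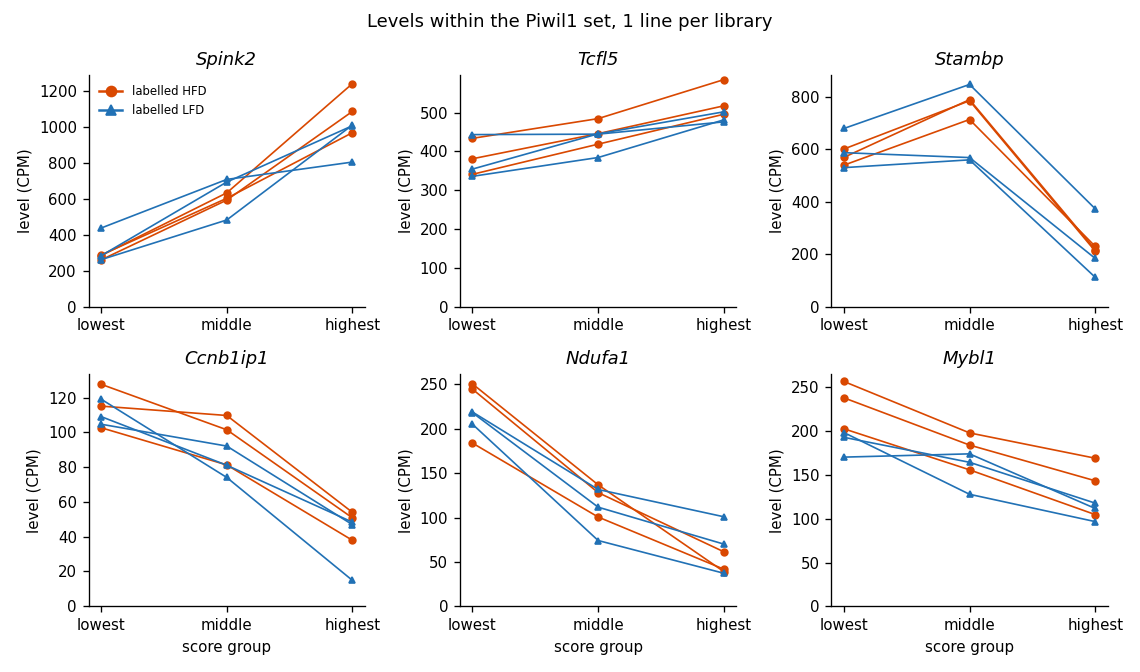
Levels in CPM of 6 genes outside the score (Spink2, Tcfl5, Stambp, Ccnb1ip1, Ndufa1 and Mybl1) in the lowest, middle and highest score group of Piwil1-high spermatocytes, with a line per library (circles labelled HFD, triangles labelled LFD). Spink2 goes from a mean of 302 to 1019 CPM, Ccnb1ip1 from 113 to 42.2 CPM, and Stambp has its highest mean in the middle group at 710 CPM.

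Traces of somatic cells were small and uneven, while genes of elongating spermatids had UMIs in every member. The 4 Leydig cell genes Hsd3b1, Hsd3b6, Insl3 and Lhcgr of a list of 7 had no UMI, and the list summed to between 2.30 and 8.26 CPM per library. C1qa and Lyz2 of the 9 macrophage genes were at 0, with a sum of 0 to 6.04 CPM. The 11 Sertoli genes, with Gata1 at 0, summed to 27.6 to 183 CPM, the highest in the first HFD library, and the 7 peritubular genes to 2.30 to 53.1 CPM, the highest in the second LFD library. A total of 3 members held 20 or more Sertoli UMIs and 1 held 20 or more peritubular UMIs, and no doublet caller was run. The round spermatid list summed to 285 to 680 CPM, the highest in the third LFD library, and 34 members held 20 or more of its UMIs. Spermatogonial genes summed to 650 to 910 CPM, nearly all from Dazl (490 CPM, also made by spermatocytes) and Id4 (253 CPM), and Id4 was higher here than in any other gate. The protamine and other elongating spermatid genes summed to 2719 to 4717 CPM, where macrophage barcodes had 116673 CPM. The selection held Prm1, Prm2, Tnp1 and Tnp2 under 1% of UMIs in members but not in the macrophage gate. That contrast therefore follows in part from the gates. All 451 members held 20 or more UMIs of the elongating spermatid list, with a median of 110.

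The diet comparison asks whether 2 weeks of HFD changed these spermatocytes. Piwil1-high spermatocytes were 1.01%, 1.14% and 1.24% of barcodes in the libraries labelled HFD and 1.16%, 0.658% and 0.278% in those labelled LFD. The means of 1.13% ± 0.119 and 0.699% ± 0.443 differed by 0.432 percentage points, and the groups overlapped (exact permutation test over libraries, two-sided, p = 0.3, smallest possible 0.1). Between the replicate 1 libraries the difference was -0.155, and over the other 4 it was 0.726. Without the third LFD library the difference was 0.221, without the first LFD library 0.663, with at least 20 Piwil1 UMIs 0.212, and with Piwil1 counted per 10000 UMIs 0.114. The X-linked share was 0.0784% ± 0.00998 against 0.0892% ± 0.0257, a difference of -0.0109 (exact permutation p = 0.7). The first libraries differed by 0.0154 and the other 4 by -0.0240, and without the third LFD library, which held 16 cells, the difference was 0.00260 (exact permutation p = 0.8). Without the 6 members over 0.5% it was 0.00383 (exact permutation p = 0.8). The mitochondrial mRNA share was 4.72% ± 1.1 against 4.08% ± 0.438, a difference of 0.642 (exact permutation p = 0.5, -0.0659 between the first libraries and 0.995 over the other 4). It was 0.174 without the second HFD library, 1.25 without the first HFD library, 0.389 without the first LFD library, and 0.309 with at least 20 Piwil1 UMIs. The median mitochondrial share per member was 3.455%, 4.59% and 4.45% in HFD 1 to 3 and 3.42%, 3.37% and 3.635% in LFD 1 to 3. Single members reached 11.52%, 26.25% and 23.42% against 9.66%, 61.88% and 19.06%. The part of such members in the difference was not tested. The groups overlapped in all 3 shares.

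Across genes, no diet difference passed the adjusted threshold. The UMIs of the members were summed per library and 9942 genes were tested by edgeR's quasi-likelihood test with Benjamini-Hochberg adjustment. It called 0 genes at an adjusted p under 0.05 (0% of those tested), and DESeq2 also called 0. No adjusted p was below 0.999965. Before adjustment, 257 genes (2.58%) had a p under 0.05, with HFD above LFD in 117 of them and below in 140, and DESeq2 gave 103 such genes. The median standard error of a log2 change was 0.21. The count rested on the first HFD library: without it, 172 genes were called, 28 higher and 144 lower, and without any other library 0. Gene levels also ran with base composition to a different degree across libraries, with a Spearman correlation across genes between the log deviation from the mean and GC content of 0.327 against -0.450 and -0.397 in the other 2 HFD libraries, and 0.158, 0.213 and 0.158 in the 3 LFD libraries. By sign the first HFD library thus went with the LFD libraries. With GC and length trends taken out and that library still left out, a choice made after seeing the data, the count was 0, with 885 genes at an unadjusted p under 0.05.

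The genes with the smallest unadjusted p at 20 CPM or more are given as values that did not pass. Btg3, an antiproliferative gene, stood at 31.8, 28.0 and 31.0 CPM in the libraries labelled HFD and at 19.6, 18.1 and 13.8 in those labelled LFD (log2 difference 0.71 ± 0.21 SE). Hmgn1, a nucleosome-binding protein, stood at 150, 172 and 187 against 124, 118 and 127 CPM (0.46 ± 0.14). Prdx4, the X-linked gene named above, stood at 38.3, 39.1 and 43.7 against 28.0, 25.8 and 27.6 CPM (0.56 ± 0.18), but the difference was 0.23 with at least 20 Piwil1 UMIs and 0.00083 with Piwil1 counted per 10000 UMIs. The groups of these 3 genes did not overlap, which held for 486 of all genes tested with HFD higher (4.89%) and for 389 with HFD lower (3.91%). Ctsl, at 79.4, 52.1 and 47.4 against 40.5, 34.6 and 20.7 CPM, is also on the Sertoli list, which was highest in the same first HFD library, and its part in the difference was not tested. With Piwil1 counted per 10000 UMIs the differences of Btg3, Hmgn1 and Ctsl were 0.36, 0.28 and 0.27, and without the first HFD library that of Ctsl was 0.46. Hmmr, a spindle protein, stood at 46.5, 61.6 and 56.8 against 34.0, 40.2 and 41.5 CPM.

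Lower in the libraries labelled HFD were Gm34585, at 19.0, 22.2 and 23.2 against 28.8, 37.7 and 48.4 CPM (log2 difference -0.74 ± 0.21), and Zfp428, at 29.0, 20.3 and 20.5 against 33.6, 38.2 and 46.1 CPM (-0.70 ± 0.22). Dtx2, Usp20 and Mtif3, the last a mitochondrial translation initiation factor, had differences of -0.71, -0.60 and -0.56. All 10 named genes had groups that did not overlap, which adds no support, since they were picked by their p.

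No gene of any list passed the adjusted threshold, as for all genes. Of 22 piRNA pathway genes, 14 had a positive and 8 a negative difference, with a median of 0.05 on the log2 scale against 0.00058 over all genes, and none had an unadjusted p under 0.05. Of 12 synaptonemal complex genes, 11 were positive with a median of 0.14, and none had an unadjusted p under 0.05. Of 17 recombination genes, 13 were positive, and Mnd1 (31.9, 35.9 and 33.6 against 22.4, 24.8 and 18.4 CPM) had the smallest unadjusted p, 0.0105. Groups did not overlap, with HFD higher, for 3 of the 17, Mnd1 and Shoc1 among them, against 4.89% of all genes tested. Of the 11 early genes of the stage score, 10 were positive, and of its 9 late genes, 7 were negative. The median score was 51.3%, 46.9% and 47.3% in HFD 1 to 3 and 49.6%, 56.5% and 56.4% in LFD 1 to 3. Prdx4, named above, was at 71.4 CPM in the lowest and 14.2 CPM in the highest score group. The part of stage in these diet differences was not tested.

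Of 10 histone genes, 7 had a negative difference. Hist1h1t, Hist1h2ba and Hist1h2aa had log2 differences of -0.52, -0.53 and -0.62 with unadjusted p of 0.0109, 0.0119 and 0.0122, but the groups of Hist1h2ba and Hist1h2aa overlapped, since the third LFD library was at 129 and 87.6 CPM. H3f3b, H2afz and H3f3a were higher in all 3 HFD libraries, by 0.19, 0.17 and 0.13 on the log2 scale. All 13 mitochondrially encoded mRNAs had a positive difference, from 0.13 to 0.49, with none at an unadjusted p under 0.05, and mt-Co3 stood at 8277, 13632 and 11960 against 8269, 10467 and 10403 CPM. These are pooled sums, and the part of single members with a high mitochondrial share was not tested. Of the 6 marker genes 3 were higher and 3 lower, with Adam2 the only marker whose groups did not overlap (357, 385 and 416 against 354, 349 and 313 CPM). The transcription regulators were lower for 10 of 14, the energy enzymes for 12 of 19, and 8 of 13 fatty acid oxidation genes were higher, none at an unadjusted p under 0.05. The XY body list was split 8 to 8, the division regulators 8 higher to 9 lower, the chaperones 9 to 6 and the ADAM genes 6 to 2.

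The values for genes of other cell types did not pass the adjusted threshold either. Of 12 round spermatid genes, 10 were lower in the libraries labelled HFD with a median of -0.34. An unadjusted p under 0.05 was found for 2 of them (Lyzl4 and Acr), against 2.58% of all genes tested. The round spermatid list was highest in the third LFD library. Dazl, at 497, 576 and 597 against 475, 396 and 399 CPM, had an unadjusted p of 0.0149. Star, the Leydig cell cholesterol carrier, was at 4.29, 8.26 and 5.97 against 2.00, 3.61 and 2.30 CPM, a log2 difference of 1.18. These Star levels rest on few UMIs, since the members of the third LFD library held only 434010 UMIs in all. Of the 2 Sertoli genes tested, Ctsl was given above, and Defb19 was at 34.7, 2.22 and 0.373 against 5.21, 4.64 and 2.30 CPM, high in the first HFD library alone. Of the 3 spermatogonial genes 2 were higher, the 11 elongating spermatid genes were split 5 higher to 6 lower, and no peritubular, macrophage or red blood cell gene was abundant enough to test. The part of these cells in the differences above was not tested.

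**Figure D5:**
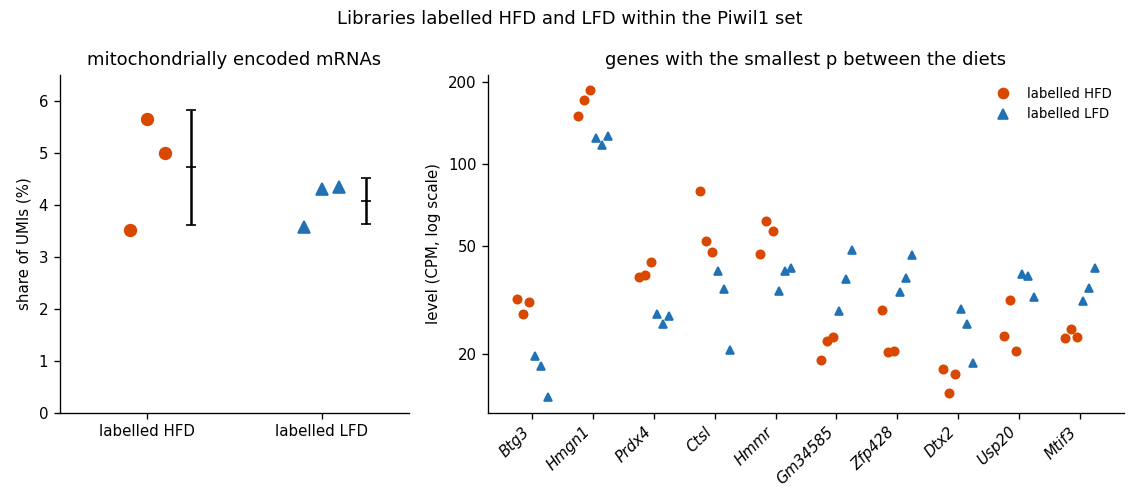
Share of UMIs from mitochondrially encoded mRNAs in percent (left, with mean and SD) and levels in CPM on a log axis of the 10 genes with the smallest unadjusted p at 20 CPM or more (right), with a point for each of the 3 libraries labelled HFD (circles) and the 3 labelled LFD (triangles). The mitochondrial shares overlap. The groups of the 10 genes, which were picked by their p, do not, and none of the 10 passed the adjusted threshold.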

How the data were processed

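Single-cell suspensions of testis were sequenced on the 10x Genomics 3′ platform, in 3 libraries labelled HFD and 3 labelled LFD. The labels name the v2 kit and the study's methods v3.1. The authors aligned reads to mm10 with Cell Ranger 6.0.1, and the deposited matrices hold raw UMI counts per gene and barcode, checked as whole numbers. A filter of 200 genes per barcode, as in the study's methods, removed none. No doublet caller was run. As an alternative, the deepest 5% of members were left out.

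Members, gene lists and named genes were chosen with earlier results of these data known. Levels are UMIs per 1000000 after summing members per library. Named genes were the markers, the 15 most abundant, the 15 with the highest and 5 with the lowest fold against the neighbouring gates, the 4 highest of each list with any at 0, the 10 most like Piwil1, and for diet, with under 3 calls, the 5 smallest p in each direction at 20 CPM or more. Diet was tested with edgeR 4.0.16 in R 4.3.3 (quasi-likelihood, TMM, filterByExpr, Benjamini-Hochberg, adjusted p under 0.05), with DESeq2 1.42.0 as an alternative, and shares by exact permutation over libraries. The test was run on simulated data first. By the methods each library is 1 mouse, so p-values cover the spread between mice. GENCODE vM21 chromosomes matched 99.8% of gene identifiers. Promoters came from RefSeq (GRCm38.p6). The limit for a count of 0 covers counting error only. Six6os1, Brme1 and Gasz were not found under these names in the gene table. Some genes that this rule names are not reported here.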

Additional observations from a re-analysis of the deposited data

How the results depend on the processing

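The third LFD library held 16 members, which limits its values. The count of called genes was 0 in the reported fit and ranged from 0 to 172 when each library was left out in turn, with 172 only without the first HFD library (adjusted by edgeR as before). It was 12 with no filter on low counts, among them Clu, Acta2 and Tagln, which are on the Sertoli or peritubular lists, and 3 (Tmsb10, Tuba3b and Gm10076) with both replicate 1 libraries left out, an alternative chosen after seeing the data. Without the first HFD library, Hmgn1, Hmmr and Zfp428 passed the adjusted threshold with log2 differences of 0.53, 0.64 and -0.88. The X-share difference was -0.0109 and ranged from -0.0229 to 0.00260, changing sign only without the third LFD library, and was 0.00383 without the 6 members over 0.5% X-linked UMIs, an alternative chosen after seeing the data. With Piwil1 counted per 10000 UMIs the mean Piwil1 level was 1326 CPM, by that gate's construction. The other 44 diet values for counts and shares and the other 176 for single genes kept their direction and side of the threshold, some with a much smaller size, and 11 values of marker levels moved by less than the SD between libraries. The cause of the changes with GC and with the first HFD library was not tested.

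The replicate numbers did not pair the libraries: same-numbered libraries' deviations correlated at 0.148, 0.0217 and -0.00433. With the replicate block the count of called genes was again 0, with 281 at an unadjusted p under 0.05, and the differences in the share of barcodes, the X share and the mitochondrial share were 0.432, -0.0109 and 0.642 (exact sign-flip p = 0.5, 1 and 0.5). The interaction of diet with stage was not run, because the third LFD library held fewer than 20 members.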
